A study of Mus musculus with 9 samples.

Results

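The genes of the proteasome were followed in cultured mouse regulatory T cells (Tregs), Foxp3-expressing CD4 cells that hold immune responses in check. Members were all protein-coding genes of the count table whose symbols start with Psma, Psmb, Psmc, Psmd, Psme, Psmf or Psmg. Psmb8, Psmb9, Psmb10, Psme1 and Psme2, which serve the immune form of the particle, were left out of the members and are set beside them further on. This gave 45 members among 43432 gene identifiers, and 43 of the 45 had enough counts to be tested. The prefix also took in 2 genes that do not encode proteasome subunits as such. Psmc3ip encodes a meiotic recombination protein, and Psme2b is a close copy of Psme2.

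RNA was sequenced from 4 Ezh2-deficient cultures (Ezh2-fl/fl, with Foxp3-Cre-GFP and R26-LSL-RFP) and 5 WT cultures of the C57BL/6 strain. All 9 carried the Foxp3-driven Cre, which acts only in cells that have expressed Foxp3, and the Cre-activated RFP reporter at the R26 locus. WT cultures 2 to 5 were Ezh2-+/+, whereas WT culture 1 was Ezh2-fl/+, with 1 floxed allele. Tregs with high CD62L were sorted, stimulated with anti-CD3/CD28 beads and kept in 2000 U/ml IL-2, and RNA was taken on day 4. Replicates of a group are called cultures, with their replicate numbers. The sources used here give neither the age nor the sex of the mice, nor whether animals were pooled.

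The comparison asked which transcripts differ in activated Tregs of the Ezh2-fl/fl genotype. Ezh2 encodes the methyltransferase of Polycomb repressive complex 2. Ezh2 itself was at 153, 167, 164 and 159 CPM (counts per 1e6 counts of the scaled library) in Ezh2-deficient cultures 1 to 4. It was at 268, 332, 288, 234 and 360.3 CPM in WT cultures 1 to 5 (log2 fold change -0.88, SE 0.11, adjusted p = 0.000363). Whether the remaining Ezh2 RNA came from the recombined gene or from cells that kept it intact cannot be told from gene counts. Total counts were 32469450 to 62201921 per library, and the Treg genes Foxp3, Il2ra, Ctla4, Ikzf2 and Cd4 were abundant in every library, summing to 8450.3 to 10414.5 CPM. Most of this sum was Il2ra, at 5238 to 6745 CPM. Foxp3 rose without overlap (log2 fold change 0.30, adjusted p = 0.0313), but did not pass without Ezh2-deficient culture 1, 2 or 3 or WT culture 2, 3 or 5. Cd4 was lower without overlap and did not pass (-0.19, adjusted p = 0.0644), and neither did Il2ra, Ctla4 or Ikzf2. The CD8 T cell genes Cd8a and Cd8b1 summed to 14.2 to 130.5 CPM in the Ezh2-deficient and 16.2 to 147 CPM in the WT libraries. Of the B cell genes Cd79a, Cd79b and Ms4a1, Cd79a fell, and Ms4a1 was at 0 in Ezh2-deficient cultures 2 and 3. Of 4 myeloid genes only Itgam, which activated lymphocytes also express, had enough counts to be tested, and it rose, from 8.52 to 16.3 CPM in WT to 16.6 to 24.5 CPM (log2 fold change 0.80). The part of these cells in the results below was not tested. Fewer cells of a type and less RNA per cell cannot be told apart in these bulk cultures.

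The 26S proteasome is the protease that degrades ubiquitin-tagged proteins. Its 20S core is a barrel of alpha rings, which gate the entry, around beta rings, which hold the cutting sites. The 19S particle caps the barrel. Its lid and base bind ubiquitin chains, remove them and thread the unfolded protein into the core with a ring of ATPases. Activated T cells grow and divide quickly and rely on the proteasome for cell cycle turnover and for the release of NF-kappaB, and interferon makes them exchange the standard cutting subunits for immune ones.

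Transcripts of the proteasome lay slightly lower in Ezh2-deficient than in WT Tregs. The largest difference of a tested member was 1.27-fold, for the non-subunit Psmc3ip, and the next was 1.25-fold, for Psmg3. The 31 genes of Psm-named subunits of the 26S particle summed to 4240 ± 105 CPM (SD, n = 4) in Ezh2-deficient and 4658 ± 232 CPM (SD, n = 5) in WT cultures, a level 8.96% lower. By library the sum was 4210.1, 4394, 4202 and 4156 CPM in Ezh2-deficient cultures, and 4677, 4444, 4739, 4433 and 4994 CPM in WT. Every Ezh2-deficient library lay below every WT library, though Ezh2-deficient culture 2 stood only just under WT cultures 2 and 4. The median log2 fold change (Ezh2-deficient over WT) over the 43 tested members was -0.15, against 0.00262 over all 13685 tested genes. Members with a value below 0 numbered 38 of 43 (88.4%), against 49.6% of all tested genes.

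Of the 43 members tested, 5 fell at an adjusted p under 0.05 in edgeR's quasi-likelihood test and 0 rose. These were the ATPase gene Psmc5, the ubiquitin receptor gene Psmd4, the lid genes Psmd7 and Psmd11 and the core gene Psmb2. Of all tested genes, 8.8% fell and 13.1% rose by the same rule, so the share of members that fell, 11.6%, stood near the background. At an unadjusted p under 0.05, 15 members were lower and 0 higher, where 17.3% of all tested genes were lower and 19.7% higher. The groups did not overlap for 7 members, all lower: Psmc4, Psmc5, Psmd2, Psmd4, Psmd7, Psmd11 and Psmd12. Of all tested genes, 8.69% were lower and 12.5% higher without overlap. The 43 included 27 genes of the top 2737 by abundance. Of these 27, 4 fell, 0 rose and 24 had a value below 0 (88.9%). Of the 2737 genes, 9.9% fell, 14.1% rose and 48.6% had a value below 0. The median SE of a member's log2 fold change was 0.09.

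The number of members that fell depended on single libraries, while 0 rose in each of the 20 alternatives. Without Ezh2-deficient culture 1 there was 1 (6.24% of all genes fell and 9.29% rose). Without culture 3 there were 2 (5.72% and 8.35%), and without culture 4 also 2 (7.51% and 10.3%). Leaving out Ezh2-deficient culture 2 gave 10 (10.7% and 11.1%). Leaving out WT culture 1, 2, 3, 4 or 5 gave 4, 5, 3, 3 and 6, where 8.92%, 8.81%, 7.25%, 6.86% and 10.5% of all genes fell and 11.9%, 10.7%, 9.91%, 11.3% and 12.9% rose. DESeq2 called 10 members lower (13.6% of all genes fell and 15.3% rose), limma-voom 6 (8.51% and 13.3%) and edgeR with total-count scaling 9 (10.6% and 12.3%). Fewer were called with no filter on low counts, at 4 (5.24% and 7.08%), and by limma-voom with quality weights, also at 4 (9.73% and 14.6%). With a replicate block, which pairs libraries of the same number, 0 members fell, where 8.15% of all genes fell. The median of the members stayed between -0.19 and -0.13 throughout.

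**Figure D1:**
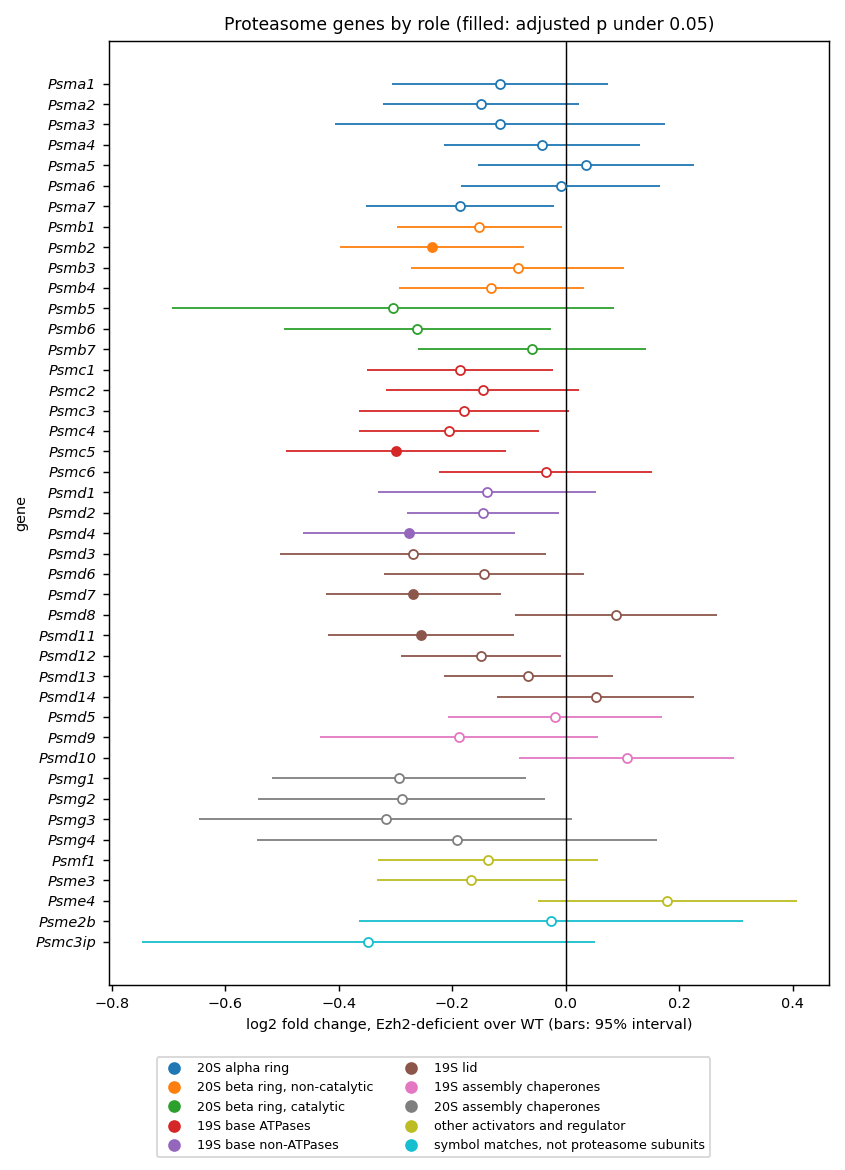
Log2 fold change, Ezh2-deficient over WT, of each of the 43 tested members (points) with 95% intervals (bars), coloured by role; filled points passed an adjusted p of 0.05. The points lie mostly left of 0, the 5 filled points are all left of 0, and no interval reaches -1.

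In the base of the 19S particle, a ring of 6 ATPases unfolds substrates, and all 6 genes had values below 0 (median -0.18), of which 1 fell. Psmc5, which encodes the ATPase Rpt6 (ENSMUSG00000020708; GRCm38 chromosome 11, 106256154 to 106263120), was at 119.6, 133, 121 and 104 CPM in Ezh2-deficient cultures 1 to 4. It was at 141, 136, 156, 138 and 164 CPM in WT cultures 1 to 5. The groups did not overlap, and Ezh2-deficient culture 4 was the lowest. The means were 119.6 ± 12 (SD, n = 4) and 147 ± 12.4 CPM (SD, n = 5). Psmc5 was thus 1.23-fold lower, with a log2 fold change of -0.30 ± 0.09 (SE) and an adjusted p of 0.0317. The test was missed without Ezh2-deficient culture 1, 3 or 4, at -0.32, -0.33 and -0.26 (adjusted p = 0.0581, 0.0572 and 0.062). Psmc4 was at 129.8 to 147.8 CPM against 148.2 to 172 CPM, also without overlap, and did not pass (log2 fold change -0.21, adjusted p = 0.0605). Psmc1, Psmc3 and Psmc2 were at -0.19, -0.18 and -0.15, and Psmc6 at -0.04 (adjusted p = 0.0942 to 0.803). Without Ezh2-deficient culture 2, Psmc4 (-0.27, adjusted p = 0.0266) and Psmc3 (-0.27, adjusted p = 0.035) passed, and Psmc4 also without WT culture 2 (-0.25, adjusted p = 0.0485). Psmc4 passed in 7 of 20 alternatives, among them DESeq2 (-0.22, adjusted p = 0.0239). Psmc1 passed in DESeq2 as well (-0.20, adjusted p = 0.0486). With a GC offset, which removes from each library the trend of levels with transcript GC content, Psmc6 was at -0.27 and passed (adjusted p = 0.00849), as did Psmc1 (-0.20, adjusted p = 0.033).

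The other base subunits are the large scaffold proteins Rpn2 and Rpn1, encoded by Psmd1 and Psmd2, and the ubiquitin receptor Rpn10, encoded by Psmd4. Psmd4 (ENSMUSG00000005625; chromosome 3, 95032694 to 95042614) was at 128, 137, 125 and 111 CPM in Ezh2-deficient cultures 1 to 4. In WT cultures 1 to 5 it was at 139, 139, 167, 162 and 151 CPM. The groups did not overlap, but Ezh2-deficient culture 2 came close to WT cultures 1 and 2. The level was 1.21-fold lower, with a log2 fold change of -0.28 (SE 0.09, adjusted p = 0.0374). The test was missed without Ezh2-deficient culture 1, 3 or 4 (-0.31, -0.29 and -0.24) or WT culture 3 or 4 (-0.27 and -0.25), with adjusted p from 0.0549 to 0.0733, and by limma-voom with quality weights (-0.20, adjusted p = 0.0712). The Ezh2-deficient libraries lay close together for Psmd2. It was at 264 to 271 CPM in Ezh2-deficient and 283 to 307 CPM in WT cultures, without overlap, and did not pass (log2 fold change -0.15, SE 0.06, adjusted p = 0.105). Psmd2 passed in 2 of 20 alternatives, DESeq2 (-0.16, adjusted p = 0.019) and total-count scaling (-0.17, adjusted p = 0.0439). Psmd1 was at -0.14 (adjusted p = 0.274).

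The lid, which includes 8 Psm-named subunits, carries the deubiquitinase Rpn11, encoded by Psmd14, which clips ubiquitin off the substrate. Of these 8 genes 2 fell and 0 rose, and 6 had values below 0 (median -0.15). Psmd7, which encodes Rpn8, the partner of Rpn11 (ENSMUSG00000039067; chromosome 8, 107580381 to 107588464), was at 97.2, 101, 97 and 98.2 CPM in Ezh2-deficient cultures 1 to 4. It was at 115, 109, 130.2, 115 and 123 CPM in WT cultures 1 to 5. The 4 Ezh2-deficient libraries lay within a few CPM of each other and below every WT library. The means were 98.3 ± 1.81 (SD, n = 4) and 118 ± 8.27 CPM (SD, n = 5). This 1.2-fold difference (log2 fold change -0.27, SE 0.07) had an adjusted p of 0.019. Psmd7 passed in 19 of 20 alternatives.

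Psmd11, which encodes the lid subunit Rpn6 (ENSMUSG00000017428; chromosome 11, 80428615 to 80473248), was at 81.9, 78.8, 75.6 and 88.3 CPM in Ezh2-deficient cultures 1 to 4. In WT cultures 1 to 5 it was at 97.9, 103, 91.3, 90.9 and 101 CPM. The groups did not overlap, and here culture 4 was the highest of the Ezh2-deficient libraries. The level was 1.19-fold lower, with a log2 fold change of -0.26 (SE 0.08, adjusted p = 0.0311). The test was missed without Ezh2-deficient culture 1 or 3 (-0.28 and -0.24) or WT culture 2 (-0.25), with adjusted p from 0.0521 to 0.0788. Psmd3 (log2 fold change -0.27), Psmd12 (-0.15) and Psmd6 (-0.14) had values below 0 and did not pass (adjusted p = 0.0908, 0.114 and 0.218). Psmd3 passed without Ezh2-deficient culture 2 (-0.37, adjusted p = 0.0304) or WT culture 5 (-0.33, adjusted p = 0.0472). Psmd12 passed in DESeq2 (-0.16, adjusted p = 0.0396) and with the GC offset (-0.19, adjusted p = 0.0326). Psmd14 itself was at 138 ± 2.76 against 133 ± 12.8 CPM (log2 fold change 0.05, 95% interval -0.12 to 0.23, adjusted p = 0.67). Psmd8 was the most abundant lid transcript at 298 ± 22.8 against 280.4 ± 22.7 CPM (0.09, interval -0.09 to 0.27, adjusted p = 0.463), and Psmd13 was at -0.07.

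**Figure D2:**
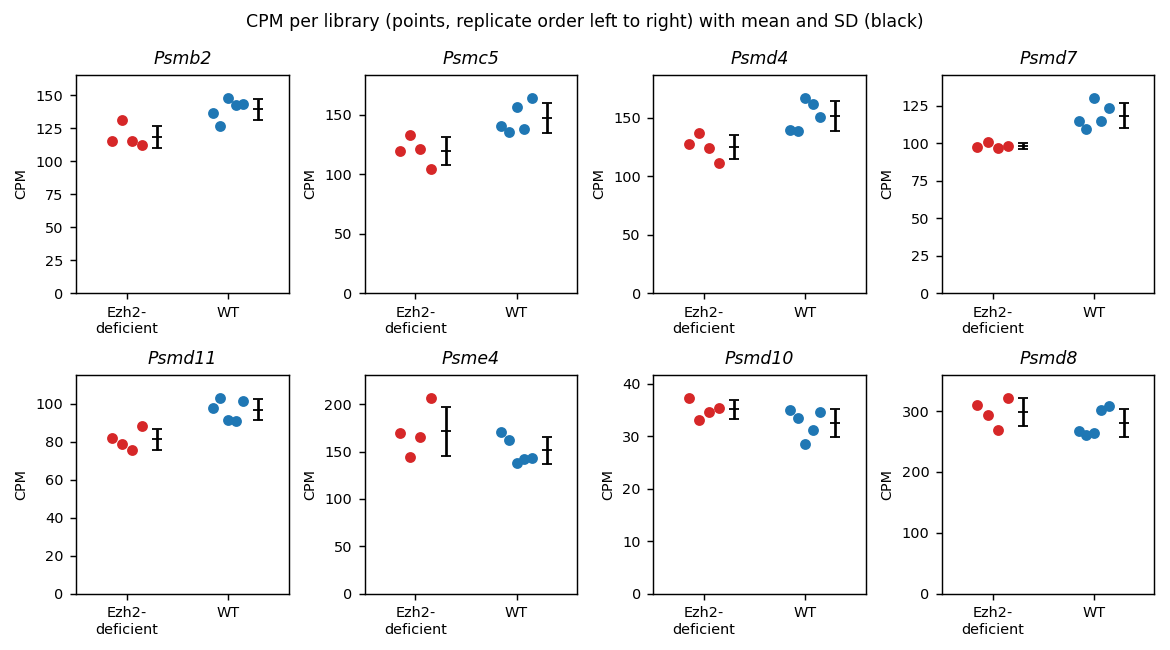
CPM of the 5 members that fell (Psmb2, Psmc5, Psmd4, Psmd7, Psmd11) and of the 3 members with the highest log2 fold changes (Psme4, Psmd10, Psmd8) in each library; points stand in order of replicate number, black marks give mean and SD. The groups are apart for Psmc5, Psmd4, Psmd7 and Psmd11, Ezh2-deficient culture 2 reaches into the WT range for Psmb2, and the groups overlap for the last 3.

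Upstream sequence was shown for the members that fell and for the cutting subunits, as far as RefSeq (GRCm38.p6) entries were at hand. Each stretch is the 250 bases before the RefSeq start, which for Psmc5 and Psmb5 lies inside the GENCODE gene, read along the gene's strand. Letters in capitals mark 4 searched motifs on either strand: the antioxidant response element core TGACNNNGC, which the factor NRF1 (Nfe2l1) uses to induce proteasome genes, the CCAAT box CCAAT, the GC box GGGCGG and the ETS-type site CCGGAAG. The stretches lie at chr11:106255935-106256184 (plus strand) for Psmc5, chr3:95042615-95042864 (minus) for Psmd4, chr11:80428365-80428614 (plus) for Psmd11, chr14:54617996-54618245 (minus) for Psmb5 and chr11:70525107-70525356 (plus) for Psmb6.
Psmc5: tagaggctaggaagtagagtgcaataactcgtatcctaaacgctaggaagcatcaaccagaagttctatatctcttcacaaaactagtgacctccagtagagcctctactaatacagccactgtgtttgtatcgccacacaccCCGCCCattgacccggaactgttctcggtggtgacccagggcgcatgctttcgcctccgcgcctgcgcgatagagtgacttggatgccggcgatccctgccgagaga
Psmd4: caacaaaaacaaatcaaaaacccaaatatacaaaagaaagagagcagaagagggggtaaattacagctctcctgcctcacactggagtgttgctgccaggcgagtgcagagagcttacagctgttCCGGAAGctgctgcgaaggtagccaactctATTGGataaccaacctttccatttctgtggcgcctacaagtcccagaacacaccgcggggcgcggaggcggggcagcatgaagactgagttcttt
Psmd11: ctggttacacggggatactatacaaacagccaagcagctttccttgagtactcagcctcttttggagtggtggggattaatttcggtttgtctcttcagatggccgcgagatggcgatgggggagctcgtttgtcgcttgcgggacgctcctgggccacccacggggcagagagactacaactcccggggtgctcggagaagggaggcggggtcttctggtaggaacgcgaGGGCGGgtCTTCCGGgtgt
Psmb5: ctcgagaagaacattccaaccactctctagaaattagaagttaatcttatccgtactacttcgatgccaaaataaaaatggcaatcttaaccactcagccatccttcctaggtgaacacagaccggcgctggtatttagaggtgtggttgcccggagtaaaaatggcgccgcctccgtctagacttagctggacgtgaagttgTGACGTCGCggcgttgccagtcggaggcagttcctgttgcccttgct
Psmb6: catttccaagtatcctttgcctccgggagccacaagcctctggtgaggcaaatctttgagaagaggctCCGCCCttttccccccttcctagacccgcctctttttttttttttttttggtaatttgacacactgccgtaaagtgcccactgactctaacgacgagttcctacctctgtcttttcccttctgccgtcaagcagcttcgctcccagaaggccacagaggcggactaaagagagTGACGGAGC
Psmd4 and Psmd11 each held an ETS-type site, at bases 125 to 119 upstream of the start in Psmd4 and 11 to 5 upstream on the opposite strand in Psmd11. Psmb5 and Psmb6 held the response element core, at bases 47 to 39 and 9 to 1 upstream. Promoter entries were found for 36 of the 43 tested members. In the same 250 bases, the ETS-type site stood in 13 of them (36.1%), against 16% of 10046 tested genes with an entry and 7.83% of all 27025 genes with one. The response element core stood in 5 (13.9%, against 14.2% of tested and 11.5% of all genes with an entry), namely Psmb5, Psmb6, Psmc6, Psmd9 and Psmd12. The CCAAT box stood in 36.1% against 40.5% of tested and 37.5% of all genes, and the GC box in 52.8% against 63.5% and 35.4%. A match to these letters is not evidence of binding.

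The alpha rings of the 20S core are built from the 7 subunits Psma1 to Psma7. Of these genes 0 passed the test, 1 had an unadjusted p under 0.05, and DESeq2 and limma-voom called 0 as well. The GC offset called 2 lower, Psma2 at -0.33 and Psma1 at -0.23 (adjusted p = 0.00628 and 0.0284). Their values ran from -0.19 for Psma7 to 0.04 for Psma5 (median -0.12). Psma7 was at 132, 135, 128 and 120.0 CPM in Ezh2-deficient cultures 1 to 4 and at 142, 133.5, 160.1, 140.4 and 157 CPM in WT cultures 1 to 5 (adjusted p = 0.0968). WT culture 2 was the only WT library within the Ezh2-deficient range. Summed over the ring, the level was 804 ± 14.1 CPM against 861 ± 71.3 CPM, where WT culture 4 (784 CPM) lay below all 4 Ezh2-deficient libraries.

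The beta rings hold 7 subunits, of which Psmb5, Psmb6 and Psmb7 encode the cutting subunits with chymotrypsin-like, caspase-like and trypsin-like activity. Of the 4 non-catalytic genes 1 fell. Psmb2 (ENSMUSG00000028837; chromosome 4, 126677630 to 126709714) was at 115, 131, 115 and 112 CPM in Ezh2-deficient cultures 1 to 4 and at 137, 127, 148, 143 and 143 CPM in WT cultures 1 to 5. Ezh2-deficient culture 2 stood above WT culture 2, so the groups overlapped. The level was 1.18-fold lower, with a log2 fold change of -0.24 (SE 0.07, adjusted p = 0.041). The test was missed without Ezh2-deficient culture 1, 3 or 4 (-0.25, -0.24 and -0.23) or WT culture 1, 3 or 4 (-0.25, -0.24 and -0.23), with adjusted p from 0.0507 to 0.0858. It was also missed with no filter (-0.25, adjusted p = 0.0532) and by limma-voom with quality weights (-0.19, adjusted p = 0.0634). Psmb1, Psmb4 and Psmb3 were at -0.15, -0.13 and -0.08 (adjusted p = 0.119 to 0.508). Psmb1 passed with the GC offset (-0.18, adjusted p = 0.0461).

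None of the 3 cutting subunit genes passed, with 1 at an unadjusted p under 0.05 and 0 called by DESeq2 or limma-voom. Psmb5 was at 25.7, 35.8, 28.2 and 18.6 CPM in Ezh2-deficient cultures 1 to 4 and 29.0, 28.5, 43.1, 35.9 and 30.6 CPM in WT cultures 1 to 5. Its libraries overlapped widely, with Ezh2-deficient culture 4 lowest and WT culture 3 highest (log2 fold change -0.30, 95% interval -0.69 to 0.09, adjusted p = 0.239). Psmb6 had the same lowest and highest library, at 97.7 and 159 CPM (log2 fold change -0.26, adjusted p = 0.0993). Psmb6 passed without Ezh2-deficient culture 2, which at 135 CPM was the highest of its group (-0.38, adjusted p = 0.0231; 0.0231 to 0.187 over all alternatives). Psmb7 was at 164 ± 6.54 against 171 ± 22.2 CPM (-0.06, interval -0.26 to 0.14, adjusted p = 0.678).

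Assembly of the particle needs dedicated chaperones. The 4 genes of the core chaperones Psmg1 to Psmg4, which dock alpha subunits into rings, had the lowest median of the roles, at -0.29, yet 0 passed the test. At an unadjusted p under 0.05 there were 2, and DESeq2 and limma-voom each called 1, Psmg1. Psmg1 was at 19.7, 19.9, 23.2 and 17.3 CPM against 23.2, 23.0, 26.5, 24.9 and 25.2 CPM (log2 fold change -0.29, adjusted p = 0.0584; 0.0231 to 0.113 over all alternatives), and it passed without Ezh2-deficient culture 3 (-0.39, adjusted p = 0.0305). Only Ezh2-deficient culture 3 and WT cultures 1 and 2 met. Psmg2 was at -0.29, Psmg3 at -0.32 and Psmg4 at -0.19 (adjusted p = 0.0917, 0.147 and 0.417). Psmg2 passed without Ezh2-deficient culture 2 (-0.40, adjusted p = 0.03). Psmg4, with 221 to 445 counts per library, was among the least abundant members. Of the base chaperones, Psmd9 was at -0.19, Psmd5 at -0.02 and Psmd10, known as gankyrin, at 0.11, and 0 of 3 passed, with 0 at an unadjusted p under 0.05 and 0 called by DESeq2 or limma-voom.

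Of 3 genes of alternative caps and regulators 0 passed, with 0 at an unadjusted p under 0.05 and 0 called by DESeq2 or limma-voom. Psme4 encodes PA200, a cap that opens the core without ubiquitin or ATP, and had the highest value of all members. It was at 169.6, 144, 166 and 206 CPM in Ezh2-deficient cultures 1 to 4 and 171, 162, 138, 142 and 143 CPM in WT cultures 1 to 5. The groups overlapped, and the highest library was Ezh2-deficient culture 4 (log2 fold change 0.18, 95% interval -0.05 to 0.41, adjusted p = 0.237). Without that library Psme4 was at 0.055 (adjusted p = 0.733), and with the GC offset at 0.057. Psme3, the gene of the nuclear cap PA28 gamma, was at -0.17 and Psmf1, the gene of the regulator PI31, at -0.14 (adjusted p = 0.135 and 0.284). The non-subunit Psmc3ip was at -0.35 with a 95% interval from -0.75 to 0.05, and Psme2b at -0.03.

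Both tissue-restricted 20S genes were too low to be tested. Psmb11, the cutting subunit of the thymus, had 0 counts in every library, which allows up to 0.0926 CPM in the shallowest library at 3 counts. Psma8, the alpha subunit of the testis, had 0 counts in each of the 4 Ezh2-deficient libraries. It had 4, 3, 2, 1 and 2 counts in WT cultures 1 to 5. These limits cover counting error only.

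Libraries of a group were not alike across the members. Of the 43 members, WT culture 3 was the highest library for 18 and WT culture 5 for 17, and Ezh2-deficient culture 4 was the lowest for 19. WT culture 4 was the lowest for 9, more than any other WT library. Libraries also differed in how levels moved with the GC content of transcripts. Among the 20% of tested genes richest in GC the median deviation from the 9-library mean was 0.27 in WT culture 3 and 0.21 in WT culture 4 on the log2 scale. It was -0.22 in Ezh2-deficient culture 4 and between -0.10 and 0.08 in the other 6. With this trend removed from each library, an alternative chosen after the data were examined, 11 members fell and 0 rose, with a median of -0.17, where 10.7% of all genes fell and 13.3% rose. A score over 19 hypoxia-response genes was 0.47 to 0.89 in Ezh2-deficient cultures 1 and 4 and WT cultures 1, 2 and 4, and -0.91 to -0.84 in the other 4 libraries. With that score as a covariate 9 members fell and 0 rose, with a median of -0.15, where 12.7% of all genes fell and 15.5% rose.

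**Figure D3:**
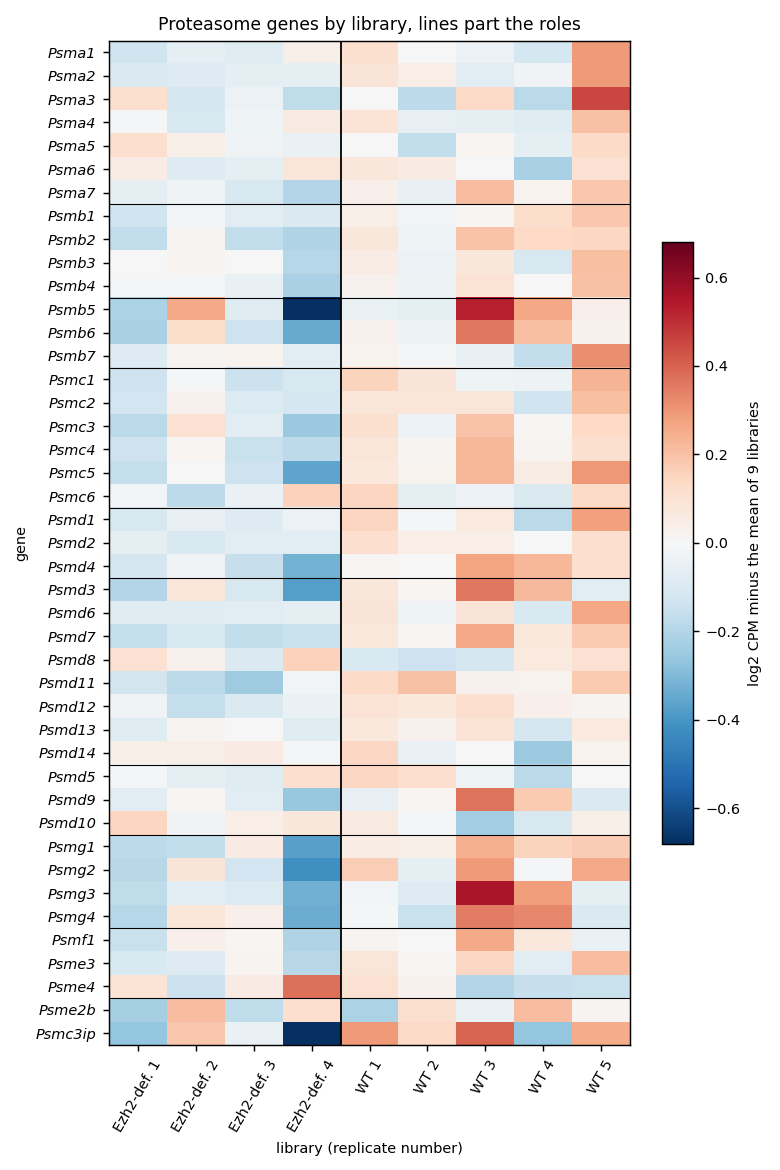
Log2 CPM of each tested member minus its mean over the 9 libraries, in rows by role and columns by library (red above, blue below the mean). Blue prevails in the 4 Ezh2-deficient columns; Ezh2-deficient culture 4 and WT culture 3 hold the extremes for genes such as Psmb5, Psmb6 and Psmg3, whereas WT culture 5 is highest for Psma1, Psma2 and Psmb7.

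Transcripts of one particle were not at one level. Per kilobase of the longest coding transcript, WT levels of the 31 subunit genes ran from 10.1 ± 1.96 CPM per kb for Psma3 to 193 ± 12.7 CPM per kb for Psmb4 (SD, n = 5). Psma5, Psmb5 and Psmb3 were at 22.4, 37.2 and 61.9 CPM per kb. Of their possible 50-base stretches, 55.4%, 54.1% and 55.8% occurred letter for letter in transcripts of other annotated genes, such as Psmb5-ps for Psmb5. Matches to the opposite strand of those transcripts were counted as well. The share was 22% for Psma3 and 0% for Psmb4, Psmb2 and Psma6 (193, 162 and 166 CPM per kb). For Psmb7 (148 CPM per kb) it was 28.1%, all of it shared with Nek6, an annotated gene that overlaps Psmb7 on the opposite strand. How reads with several matches were counted is not given in the sources used here, and the part of shared sequence in these levels was not tested. Which transcript of each gene the cells express was not tested either. The levels thus rest on the lengths chosen, such as 2.85 kb for Psma3 and 1.18 kb for Psmb4. Base ATPase genes were at 53.0 (Psmc6) to 137 (Psmc3) and lid genes at 34 (Psmd11) to 141 (Psmd8) CPM per kb. The 7 chaperone genes ran from 10.5 for Psmd9 to 27.9 CPM per kb for Psmg2.

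**Figure D4:**
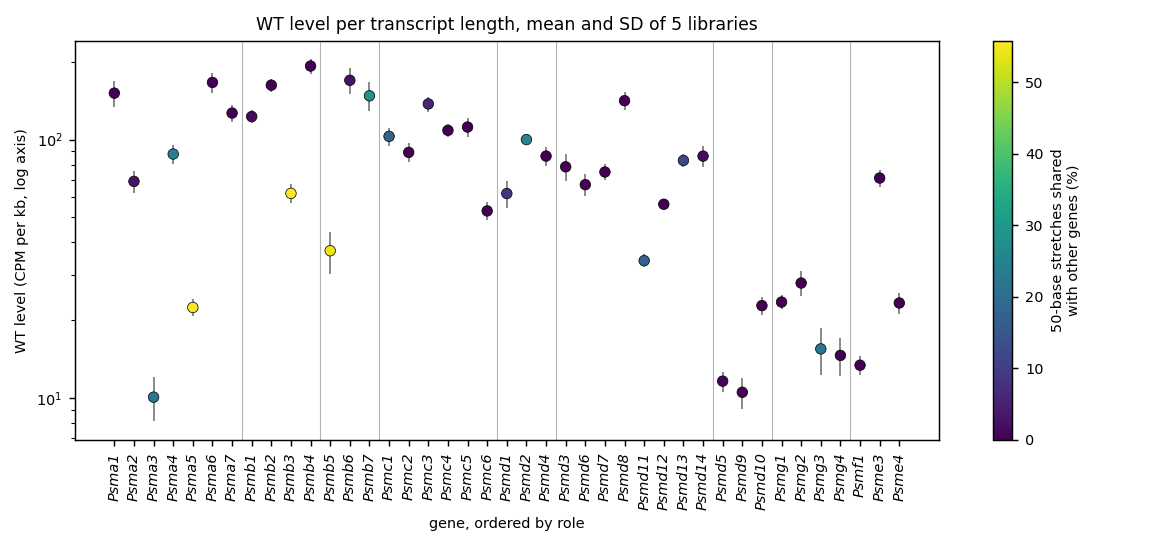
WT level per kilobase of the longest coding transcript (log axis; mean and SD of 5 libraries) of 41 members in order of role. Colour gives the percentage of 50-base stretches shared with other genes on either strand. Subunit genes stand mostly above the chaperone genes, and Psma5, Psmb3 and Psmb5, with the highest shared percentages, stand low in their rings.

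Interferon exchanges Psmb5, Psmb6 and Psmb7 for the immune subunits encoded by Psmb8, Psmb9 and Psmb10, and Psme1 and Psme2 encode the immune cap PA28. Of these 5 genes 1 fell and 0 rose (8.8% and 13.1% of all tested genes). Psmb8 was the most abundant proteasome gene of the cells in CPM, at 405, 429, 382 and 363 CPM in Ezh2-deficient cultures 1 to 4 and 492, 465, 459, 485 and 435 CPM in WT cultures 1 to 5. The groups did not overlap (log2 fold change -0.24, SE 0.07, adjusted p = 0.0362). The test was missed without Ezh2-deficient culture 1, 3 or 4 (-0.28, -0.25 and -0.23) or WT culture 1, 2 or 4 (-0.24, -0.27 and -0.23), with adjusted p from 0.0506 to 0.0862. With the GC offset Psmb8 was at -0.13 and did not pass (adjusted p = 0.148). Psmb9, which overlaps Tap1, was at 147 ± 8.26 against 127 ± 15.4 CPM (0.20, adjusted p = 0.127). It was higher and passed with the GC offset (0.31, adjusted p = 0.0218). There, 1 of the 5 genes rose and 0 fell (13.3% and 10.7% of all tested genes). In the reported fit Psmb10, Psme1 and Psme2 were at -0.24, -0.19 and -0.04 (adjusted p = 0.32, 0.0885 and 0.782). Psme1 passed without WT culture 2 (-0.24, adjusted p = 0.0384).

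The balance of immune and standard subunits was compared as 4 log2 ratios within each library, which do not depend on library scaling. The ratio of Psmb9 to Psmb6 was 0.53, 0.20, 0.30 and 0.52 in Ezh2-deficient cultures 1 to 4 and 0.23, 0.0018, -0.38, -0.06 and -0.22 in WT cultures 1 to 5. Only WT culture 1 reached into the Ezh2-deficient range. The difference of 0.48 had p = 0.0238 in an exact two-sided permutation test over 126 splits, and did not pass after adjustment over the 4 ratios (adjusted p = 0.0952). The ratios of Psmb8 to Psmb5, Psmb10 to Psmb7 and Psme1 to Psme3 differed by 0.08, -0.17 and -0.02 (exact permutation p = 0.683, 0.556 and 0.857, adjusted p = 0.857 for each). The smallest p this design allows is 0.00794.

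**Figure D5:**
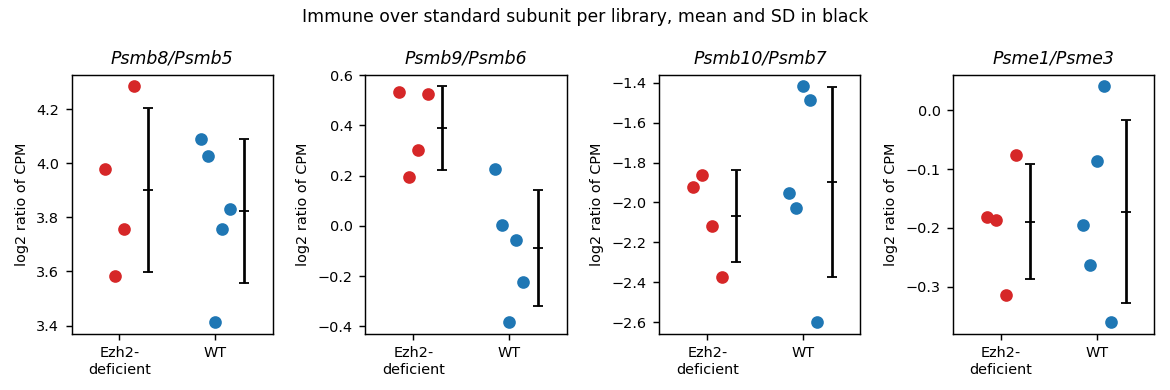
Log2 ratio of CPM of an immune subunit gene to its standard counterpart in each library (points; mean and SD in black) for 4 pairs. Ezh2-deficient libraries lie between 0.20 and 0.53 for Psmb9 over Psmb6, above 4 of 5 WT libraries, and the groups overlap for the other 3 pairs.

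Partners of the proteasome that lack the Psm names included 2 genes that rose among 11 tested, and 0 fell. By the same rule, 13.1% of all tested genes rose and 8.8% fell. Zfand5, which encodes a zinc finger protein that binds and stimulates the 26S particle, was at 67.9, 60.2, 65.5 and 73.9 CPM in Ezh2-deficient cultures 1 to 4 and 48.1, 49.6, 44.98, 42.8 and 58.2 CPM in WT cultures 1 to 5. Every Ezh2-deficient library lay above every WT library (log2 fold change 0.46, SE 0.10, adjusted p = 0.00735), and Zfand5 passed in 20 of 20 alternatives, with its smallest value under the GC offset (0.28). Ecpas, which encodes the adaptor ECM29, rose by 0.27 (adjusted p = 0.0493), a call that was lost in 16 of 20 alternatives. Among these 16 were the fits without each library except WT culture 1 (0.18 to 0.30, adjusted p = 0.0533 to 0.198). The receptor gene Adrm1 was at -0.33, the deubiquitinase genes Usp14 and Uchl5 at -0.21 and -0.18, and the lid gene Sem1 at -0.06 (adjusted p = 0.0622, 0.103, 0.181 and 0.595). Adrm1 passed without WT culture 5 (-0.39, adjusted p = 0.043) and Usp14 without WT culture 4 (-0.27, adjusted p = 0.03). With the GC offset Usp14 was at -0.40 and Uchl5 at -0.36, and both passed (adjusted p = 0.00389 and 0.0196). Pomp, which encodes the maturation factor of the core, was at 136 ± 1.0 against 136 ± 17 CPM.

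Upstream of the proteasome, the ubiquitin-activating enzyme gene Uba1 fell. It was at 547, 556, 538 and 564 CPM in Ezh2-deficient cultures 1 to 4 and 715, 697, 719, 723 and 740.4 CPM in WT cultures 1 to 5. The gap between the groups was wider than the spread within either (1.30-fold lower, log2 fold change -0.38, SE 0.06, adjusted p = 0.00174), and Uba1 passed in 20 of 20 alternatives. It was 1 of 6 ubiquitin and activating enzyme genes tested, and the other 5 did not pass (8.8% of all tested genes fell). Uba1 lies on the X chromosome. Ubqln4, which encodes a shuttle factor that carries ubiquitin-tagged proteins to the proteasome, fell by 0.37 on the log2 scale (adjusted p = 0.0338). Ubqln4 did not pass without Ezh2-deficient culture 1, 3 or 4 or WT culture 4 (-0.40, -0.38, -0.33 and -0.38; adjusted p = 0.0517 to 0.0665).

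NRF1, encoded by Nfe2l1, is a membrane-bound factor that is freed to induce proteasome genes when the protease is short. Of 7 tested genes of this control, 1 rose and 1 fell (13.1% and 8.8% of all tested genes). Nfe2l1 was at 98.6, 86.8, 78.0 and 94.7 CPM in Ezh2-deficient cultures 1 to 4 and 90.8, 112, 114, 122 and 109 CPM in WT cultures 1 to 5. WT culture 1 lay inside the Ezh2-deficient range (log2 fold change -0.29, adjusted p = 0.0518), and without it Nfe2l1 passed (-0.36, adjusted p = 0.0199; 0.0199 to 0.139 over all alternatives). It also passed without Ezh2-deficient culture 1 (-0.36, adjusted p = 0.044) and in DESeq2 (-0.30, adjusted p = 0.0262). In all, Nfe2l1 passed in 8 of 20 alternatives and did not pass in 12. Its relative Nfe2l2, which encodes the oxidative stress factor NRF2, rose by 0.39 to 58.7 ± 8.23 from 44.7 ± 3.16 CPM (adjusted p = 0.0172). That call was lost without Ezh2-deficient culture 1 or 3 (0.30 and 0.32; adjusted p = 0.0769 and 0.0742). The small MAF partner gene Mafg fell by 0.42 (adjusted p = 0.0399), and did not pass without Ezh2-deficient culture 1, 2 or 3 or WT culture 3 or 4 (-0.48, -0.38, -0.38, -0.45 and -0.33; adjusted p = 0.0552 to 0.0954) or with the GC offset (-0.31, adjusted p = 0.113).

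Of 9 genes of p97 (Vcp), the unfoldase that feeds the proteasome, and its cofactors, 0 passed, with 2 at an unadjusted p under 0.05. At that unadjusted threshold 17.3% of all tested genes were lower and 19.7% higher. DESeq2 called 2, Nploc4 at -0.21 and Ubxn7 at 0.32, and limma-voom 0. Vcp itself was at -0.06 (adjusted p = 0.511). Nploc4 passed without WT culture 3 or 4 (-0.24 and -0.22; adjusted p = 0.0367 and 0.0451), and Ubxn7 without Ezh2-deficient culture 2 or WT culture 5 (0.38 and 0.36; adjusted p = 0.0447 and 0.0482). The COP9 signalosome shares its plan with the proteasome lid and removes NEDD8 from ubiquitin ligases. Of its 10 genes 1 fell, Cops7b, where 8.8% of all tested genes fell. Cops7b was at 31.6 ± 0.771 against 37.5 ± 1.23 CPM without overlap (log2 fold change -0.25, adjusted p = 0.0299). It did not pass without Ezh2-deficient culture 1 or 3 (-0.26 and -0.28, adjusted p = 0.0535 and 0.052) or with no filter (-0.27, adjusted p = 0.0672). The median over the 10 was -0.03, against -0.15 over the 8 lid genes, a difference that was not tested. At an unadjusted p under 0.05, 4 of the 10 and 4 of the 8 were lower (17.3% of all tested genes). Of each set, 3 genes were lower without overlap (8.69% of all tested genes).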

How the data were processed

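Strand-specific poly(A) RNA libraries of 4 Ezh2-deficient and 5 WT Treg cultures were sequenced. The deposited table holds raw gene counts per library, made by the authors after alignment with STAR to GRCm38, per the submitters' processing notes. The counting tool is not given in the sources used here. Gene names and types came from GENCODE M21, which held 42548 of 43432 identifiers. Counts were tested with edgeR 4.0.16 (R 4.3.3; TMM scaling, default expression filter, robust quasi-likelihood F-test, Benjamini-Hochberg adjustment over all 13685 tested genes, threshold 0.05), with 1 group term. The common biological coefficient of variation was 0.206. CPM used TMM-scaled library sizes, and ± gives the SD. Library totals were 32469450 to 62201921, and replicates correlated at r of 0.972 to 0.987 across genes. No pair of replicates agreed within sampling noise. Nothing says that replicates came from separate mice, so p-values measure the spread between these samples, which may be technical.

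Ratios between genes were compared with exact permutation tests. Alternatives were other scalings and filters, DESeq2 1.42.0, limma 3.58.1 (voom), leaving out each library, a replicate block, a hypoxia score as covariate and, chosen after seeing the data, a GC offset. The code was tested on simulated data. Named genes were all tested members, up to 3 genes of each other pathway list with the smallest adjusted p, and, whatever their values, Ezh2, Nfe2l1, Pomp, Adrm1, Sem1, Usp14, Uchl5, Vcp and the 5 immune subunits. Stretches of 50 bases were looked up in all annotated transcripts, on either strand. The members and lists were chosen with earlier results of these data known. Of the members, 20 overlap another annotated gene. Results for some genes of the lists are not reported here.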

Additional observations from a re-analysis of the deposited data

Results flagged for a closer look

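Among 94 groups of values examined, 2 had a library far from the rest of its group, where chance alone flags about 1 in 20. Psmb2 was at 131 CPM in Ezh2-deficient replicate 2, against 112 to 115 CPM in the other 3 Ezh2-deficient libraries. Without that library the log2 fold change of Psmb2 was -0.31 (edgeR adjusted p = 0.0168). Psmb3 was at 40.3 CPM in Ezh2-deficient replicate 4, against 46.0 to 46.7 CPM in the other 3.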

How the results depend on the processing

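The number of members that fell was 5 in the reported fit. It was 9 with total-count scaling, 10 with DESeq2, 9 with the hypoxia score as covariate and 11 with the GC offset, and 1 to 10 when 1 library was left out. Over all genes 3001 passed, and 1972 to 3168 did when 1 library was left out. With total-count scaling, DESeq2, the hypoxia score and the GC offset, 3128, 3960, 3854 and 3282 genes passed. Whether the same replicate numbers mark a pairing could not be settled. The correlations of same-numbered libraries, after removal of group means, were 0.15, -0.08, 0.11 and 0.19. Those of differently numbered libraries ran from -0.25 to 0.32. With a replicate block, 0 members fell (of all genes 8.15% fell) and 2751 genes passed. The adjusted p under the block was 0.0743 for Psmd7, 0.0776 for Psmc5, 0.0931 for Psmd4, 0.0944 for Psmd11, 0.122 for Psmb2 and 0.061 for Psmb8. The block also turned the sign of Pomp (0.076), Psma3 (0.0045), Psma4 (0.0065), Psma6 (0.018) and Psmb7 (0.022). Pomp was at 0.000997 with a filter of 1 CPM, 0.0068 with limma-voom and 0.012 with quality weights, and Psme2b at 0.0065 with limma-voom. With the GC offset Psmd10 was at -0.035, Psmd13 at 0.00058, Psmd14 at -0.074 and Psme2 at 0.018. When 1 library was left out, signs also turned for Pomp (-0.054 to 0.061), Psme2b (-0.13 to 0.026), Psma6 (-0.061 to 0.0034), Psmb7 (-0.11 to 0.0078), Psma5 (-0.022 to 0.060) and Psmd5 (-0.084 to 0.0050). So did the log2 ratio differences of Psme1 to Psme3 (-0.064 to 0.036) and Psmb8 to Psmb5 (-0.049 to 0.18). The adjusted p of the Psmb9 to Psmb6 ratio in exact permutation tests ran from 0.0714 to 0.5 over the alternatives. The upper end, 0.5, came from the exact test on pairs of same-numbered libraries. That test has so few pairs that no ratio could have passed, so it cannot decide the question. The cause of these changes was not tested. No alternative moved the median of all genes by more than 0.0285. Low counts, from 188 per library for Psme2b and 221 for Psmg4, limit both genes.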
